A study of Caenorhabditis elegans with 32 samples.

Results

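Of the 46589 genes counted in whole *C. elegans*, 9 were described here that had reads in every library of the wild-type strain and few or none in any other strain: *Y39B6A.9*, *F59B2.12*, *B0222.10*, *try-8* (*F25E5.10*), *ins-31* (*T10D4.4*), *F26D2.16*, *clec-197* (*C49C3.12*), *K12H6.9* and *K12H6.4*. They were chosen on these values: in CPM, the count of a gene scaled to the library total, every one of the 8 WT libraries had to be over 4 times every one of the 24 others. All 9 met this rule, and so did 52 further genes, so that 61 genes of the table met it. As a description, expression in the wild-type strain alone goes further than the data, since each of the 9 genes had reads in at least 7 of the 24 other libraries, and the list leaves out most of the genes with the same pattern. The height of these genes in WT, and their low level elsewhere, is how they were picked and is given as a description without a test.

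The study asked how overexpression of *pgph-2*, a gene for a glycerol-3-phosphate phosphatase, and loss of *hlh-30*, the worm homolog of the transcription factor TFEB, change gene expression with and without excess glucose. RNA-seq was performed on whole synchronized L4/young adult animals of 4 strains: *pgph-2 o/e*, *hlh-30(tm1978)*, both combined (the double mutant) and N2 Bristol (WT), each on plates with 2% glucose and on normal growth medium (NGM), with 4 libraries in each of 8 groups. The *pgph-2 o/e* strain carries *pgph-2* under its own promoter together with a pharyngeal mCherry marker, injected into WT animals as a multi-copy array, integrated with UV light and then outcrossed repeatedly to WT, and the double mutant carries the same transgene. WT animals and the *hlh-30* single mutant carry no transgene, and the empty-vector strain that the study built is not among these libraries, so that WT is not matched to *pgph-2 o/e* for the marker or the irradiation. Each genotype is represented by 1 strain, hence a difference between WT and the others cannot be told apart from a difference in strain background. The outcrossing of *hlh-30(tm1978)*, and whether the animals of all strains descend from the same N2 stock, are not given in the sources used here. Total counts ranged from 16750042 to 29794842 per library. The checks on the labels gave *pgph-2* levels of 60.7 to 143 CPM in *pgph-2 o/e* and 73.7 to 137 CPM for both combined, against 30.5 to 73.7 CPM in WT, so that single *pgph-2 o/e* libraries overlapped with WT. The *hlh-30* gene was at 50.9 to 79.8 CPM in *hlh-30* animals and at 40.6 to 74.4 CPM with both alterations, against 84.6 to 118 CPM in WT. In composition 1 library stood apart, *pgph-2 o/e* on NGM replicate 1, with a TMM scaling factor of 0.781 where the others had 0.949 to 1.07, and without it the 9 genes met the rule as before.

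The genes *ins-31*, *clec-197* and *try-8* belong to named families. *ins-31* is a member of the insulin-like peptide family, whose secreted peptides act on the insulin receptor DAF-2 as agonists or antagonists and so bear on growth, reproduction, fat storage and lifespan in the worm. *clec-197* belongs to the large family of genes with a C-type lectin-like domain, a carbohydrate-binding fold found in many secreted proteins and in genes that respond to microbes. *try-8* carries the name of the trypsin-like serine proteases, enzymes that cut proteins next to basic residues. The other 6 genes have only sequence names, and no role is given to them here.

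The 9 genes lie at 8 places on 4 chromosomes. Positions are those deposited with the counts on WBcel235, and each gene was found within 1 kb at both ends in the Ensembl annotation of that build. On chromosome V lie *Y39B6A.9* (19136509 to 19139050, plus strand, 3 exons, 229 residues), *F26D2.16* (16418349 to 16420425, minus strand, 4 exons, 416 residues), *B0222.10* (9158384 to 9159538, plus strand) and *try-8* (7452707 to 7454318, minus strand, 3 exons, 400 residues). *B0222.10* is listed as protein-coding in the deposited table but as a noncoding RNA of 1 exon in the Ensembl annotation and in RefSeq. On chromosome II lie *ins-31* (3127041 to 3127811, plus strand, 3 exons, 217 residues), *K12H6.9* (2824414 to 2824946, plus strand, 3 exons, 130 residues) and *K12H6.4* (2823413 to 2824269, minus strand, 3 exons, 132 residues). The last pair is arranged head to head, with 144 bases between the genes. *F59B2.12* (9017607 to 9020960, plus strand, 8 exons, 917 residues) is on chromosome III and *clec-197* (17345547 to 17346695, minus strand, 3 exons, 230 residues) is near the end of chromosome IV. None of the 9 is on chromosome I or X.

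In WT, *Y39B6A.9* had the highest level of the 9. Its libraries gave 28.5, 25.6, 24.7 and 22.4 CPM on glucose and 24.9, 23, 23.1 and 18.6 CPM on NGM. Outside WT the highest library reached 3.11 CPM, in *pgph-2 o/e* on NGM. It was the only one of the 9 genes with at least 1 read in each of the 24 other libraries (1 to 55 reads), so it was chosen for the ratio and not for absence.

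*F59B2.12* had 12.9, 15.1, 13.7 and 13.9 CPM in WT on glucose and 14.1, 11.4, 13.6 and 10.4 CPM in WT on NGM. In the 24 other libraries its lowest value was 0 CPM, the median 0.025 CPM and the highest 0.776 CPM. *B0222.10* had 11.6, 10.9, 10.8 and 10.7 CPM in WT on glucose and 10.7, 10.1, 9.21 and 12.8 CPM in WT on NGM, and elsewhere between 0 and 1.07 CPM with a median of 0.346 CPM. Both genes thus kept a wide gap between WT and the rest, and *B0222.10* kept a trace of reads in 19 of the 24 other libraries.

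*try-8* had 7.84, 11.3, 11.2 and 10.8 CPM in WT on glucose and 11.5, 9.26, 9.17 and 9.51 CPM in WT on NGM. The other libraries had 0 to 0.806 CPM (median 0.236 CPM), with reads in 22 of 24. *ins-31* had 7.27, 10, 11.1 and 11 CPM in WT on glucose and 8.62, 6.59, 6.22 and 6.55 CPM in WT on NGM. In the other libraries *ins-31* ranged from 0 to 0.527 CPM with a median of 0 CPM. *clec-197* had 7.84, 7.54, 6.39 and 8.32 CPM in WT on glucose and 7.44, 5.61, 5.26 and 5.35 CPM in WT on NGM, against 0 to 0.257 CPM (median 0.06 CPM) elsewhere. Among the 9 genes, *clec-197* had the widest separation, with the lowest WT library 19.8 times the highest other library.

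*F26D2.16* had 8.78, 8.12, 8.33 and 9.72 CPM in WT on glucose and 8.58, 7.43, 7.49 and 6.15 CPM in WT on NGM. *K12H6.9* had 6.08, 7.22, 8.38 and 7.75 CPM in WT on glucose and 5.91, 3.87, 4.50 and 6.89 CPM in WT on NGM. Its head-to-head partner *K12H6.4* had 5.45, 7.22, 6.65 and 7.49 CPM in WT on glucose and 5.14, 4.63, 3.91 and 3.76 CPM in WT on NGM. These 3 genes were at 0 in 16 or 17 of the 24 other libraries, and the *K12H6* pair was close in level in WT although the genes lie on opposite strands.

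Because counts grow with transcript length, the order of the genes changes when levels are given per length. Per kilobase of the deposited gene length, WT on glucose had 33.4 ± 3.31 CPM for *Y39B6A.9*, 17.1 ± 2.26 for *K12H6.9*, 14.5 ± 2.64 for *ins-31*, 14.3 ± 1.93 for *K12H6.4* and 13.8 ± 0.546 for *B0222.10* (mean and SD, n = 4). The next were *clec-197* with 9.87 ± 1.08 and *try-8* with 7.11 ± 1.14, and the lowest were *F59B2.12* with 4.86 ± 0.315 and *F26D2.16* with 4.58 ± 0.373 CPM per kilobase. In this order, each of the neighbours from *K12H6.9* to *B0222.10* overlapped with the next within their SDs, and so did *F59B2.12* and *F26D2.16*, while *B0222.10* and *clec-197*, and *clec-197* and *try-8*, did not. *Y39B6A.9* stood above all others, while the long *F59B2.12* was near the end.

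**Figure D1:**
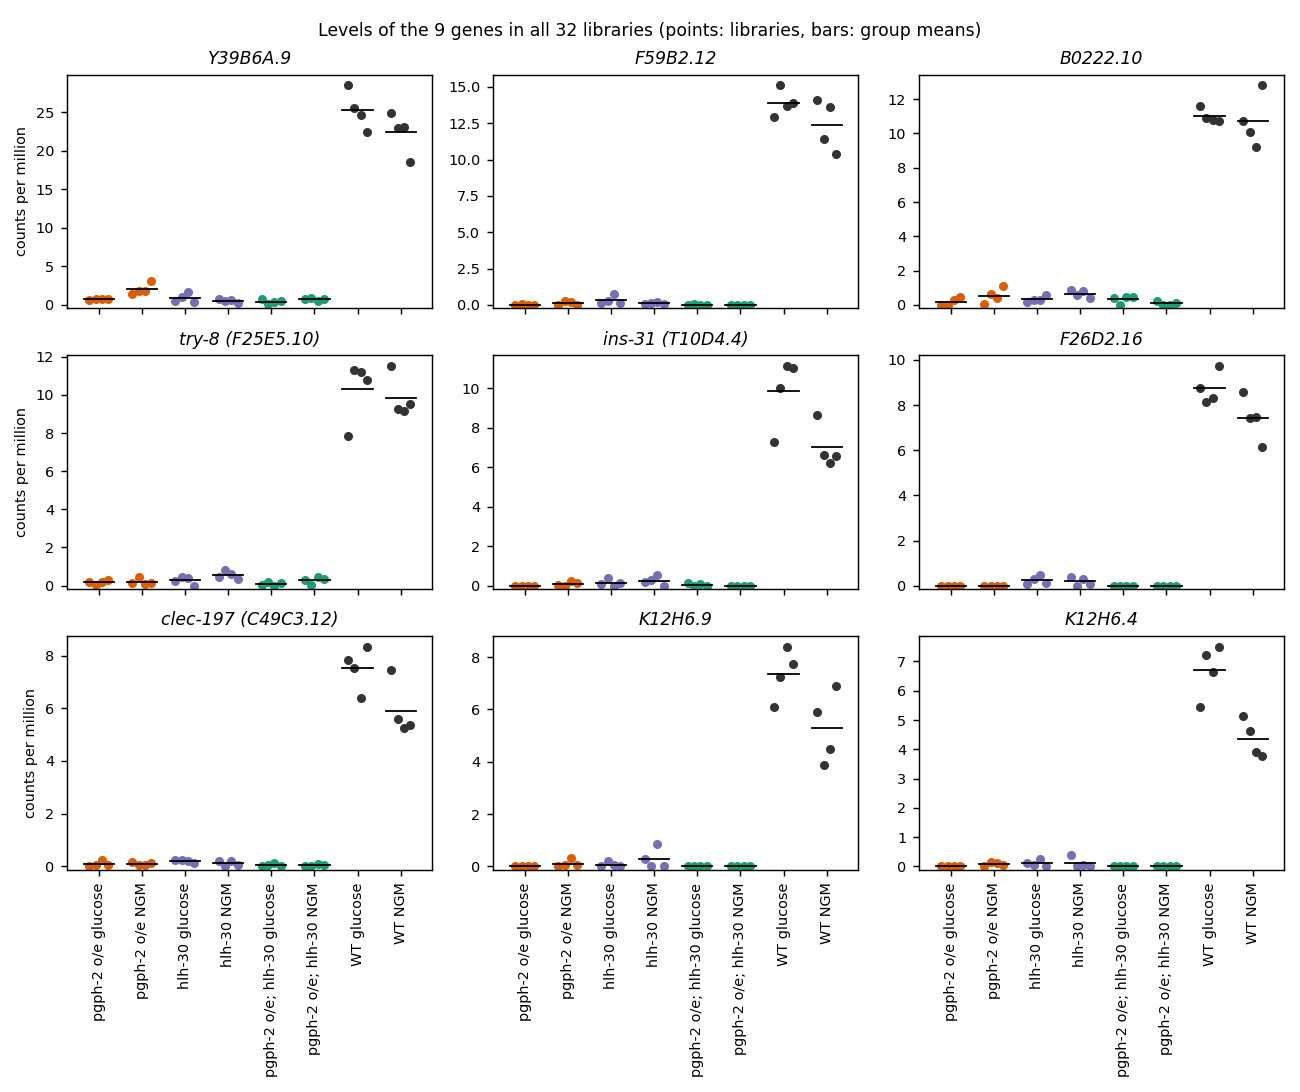
Level of each of the 9 genes in CPM (y axis, linear, a scale for each panel) in the 8 groups (x axis). Points are single libraries and bars are the means of 4, and in each panel the 8 WT libraries at the right stand apart from the 24 others, which reach at most 3.11 CPM for *Y39B6A.9* and 1.07 CPM for the remaining 8 genes.

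The 9 genes are among the strongest cases of a larger set, but they are not its complete top. Ranked by the mean WT level, they take 9 of the first 10 places among the 61 genes, and the gene missing from the list is *R01E6.5* on chromosome X, with 19.1 CPM on average in WT and a lowest WT library at 4.54 times the highest other. The 52 further genes had mean WT levels of 0.149 to 19.1 CPM with a median of 1.96 CPM. For the 9, the ratio of the lowest WT to the highest other library was 5.99 for *Y39B6A.9*, 12.9 for *F59B2.12*, 8.64 for *B0222.10*, 10.1 for *try-8*, 11.7 for *ins-31*, 12.3 for *F26D2.16*, 19.8 for *clec-197*, 4.59 for *K12H6.9* and 9.03 for *K12H6.4*. Just inside the threshold of 4, among genes with a mean WT level of at least 1 CPM, were *R53.8* (4.09) and *nspf-3* (4.13). Just outside were *tag-329* (3.99), *T16G12.10* (3.92), *nas-24* (3.75), *E02H9.9* (3.63) and *clec-161* (3.57).

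Turned around, the same rule found no gene that was over 4 times higher in each of the 24 other libraries than in every WT library. With *pgph-2 o/e* or the double mutant in the place of WT it found 0 genes in either direction. With *hlh-30* in that place it found 0 lower and 2 higher genes, which were named after their values were seen. *F56A4.3* had at least 5.75 CPM in *hlh-30* libraries, against at most 0.416 CPM in all others. *irld-35* (*F56A4.9*) had at least 0.705 CPM in *hlh-30* libraries, against at most 0.0544 CPM in the others. A set of 61 genes high in a single strain was thus seen for WT only, among the 4 strains compared in this way, and no test of that difference was made. The rule is not alike for the 4 strains. The double mutant shares the transgene with *pgph-2 o/e* and the *hlh-30* mutation with *hlh-30*. A gene changed in both carriers of an alteration cannot meet the rule for either of them alone.

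**Figure D2:**
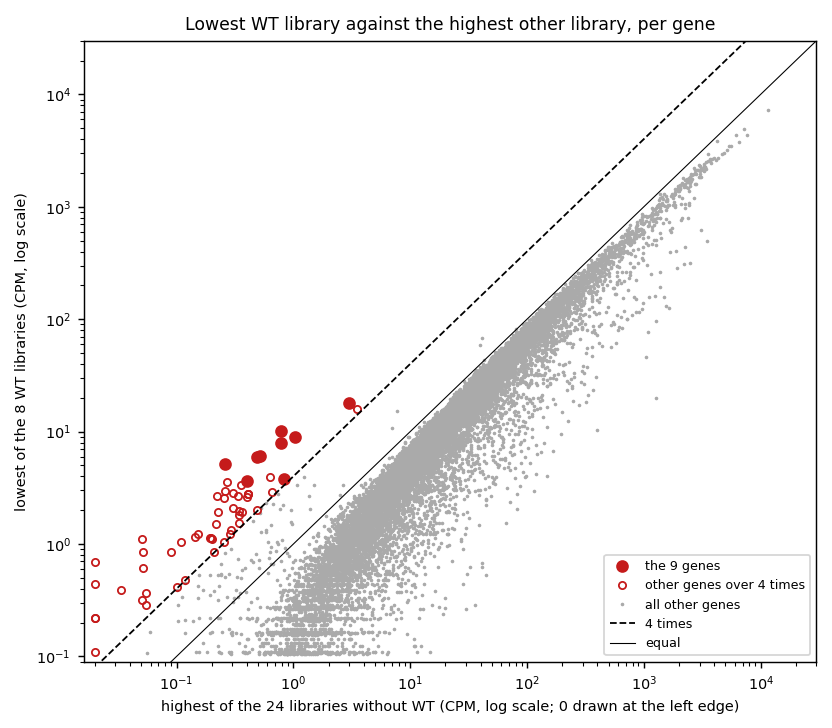
Lowest CPM among the 8 WT libraries (y axis, log scale) against the highest CPM among the 24 other libraries (x axis, log scale), for genes with a lowest WT library of at least 0.1 CPM. Red points lie above the dashed line of 4 times, filled for the 9 genes and open for other genes that met the rule, and a highest value of 0 is drawn at the left edge.

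Of the 61 genes, 60 are listed as protein-coding and 1 as a noncoding RNA, with 0 reads in the 24 other libraries and 0.109 to 0.634 CPM in WT. Genes with a *clec* symbol made up 12 of the 61, including *clec-197*. By position, 25 of the 61 (41.0%) lie on chromosome II, where 17.2% of the 17087 genes lie that had at least the mean WT level of the lowest of the 61. The other shares were 18.0% on IV (17.1% of the 17087 genes), 14.8% on V (20.9%), 13.1% on I (15.9%), 6.56% on III (14.8%) and 6.56% on X (14.1%). Of the 9 genes, 4 are on V and 3 on II. When genes that met the rule were joined over gaps of up to 20 kb, 23 of the 61 fell into 8 clusters of 2 to 5 genes. How many genes taken without the rule would cluster in this way was not worked out. *K12H6.4* and *K12H6.9* are in 1 of the 2 largest, with *K12H6.8*, *Y110A2AL.6* and *Y110A2AL.7*, and *clec-197* pairs with *C49C3.11*. The other 6 of the 9 genes had no second gene that met the rule within 20 kb. *try-13* near *try-8* and *T10D4.15* near *ins-31* fell short of the rule, although every WT library was above every other for both (values below). The share of all genes with every WT library above every other was not worked out.

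As a description without a test, the reads left in the other strains differed in number between genotypes. Over the 9 genes and 8 libraries of a genotype, 31 of 72 values were 0 in *pgph-2 o/e*, 12 of 72 in *hlh-30* and 45 of 72 in the double mutant, against 0 of 72 in WT. The sum over the 8 genes other than *Y39B6A.9* was 0.171 to 1.55 CPM in *pgph-2 o/e* (median 0.791), 0.969 to 3.58 CPM in *hlh-30* (median 1.96) and 0.0486 to 0.683 CPM in the double mutant (median 0.539), against 58.8 to 79.6 CPM in WT (median 69.9). Every *hlh-30* library was above every double mutant library in this sum, while *pgph-2 o/e* overlapped with both. These 8 genes had at most 19 reads in a library outside WT. The share of all genes that separate *hlh-30* from the double mutant in this way was not worked out. With *Y39B6A.9* included, the sum over all 9 genes was 0.857 to 4.64 CPM in *pgph-2 o/e* (median 1.7), 1.27 to 4.22 CPM in *hlh-30* (median 2.68) and 0.336 to 1.32 CPM in the double mutant (median 1.04), against 79.9 to 103 CPM in WT (median 96.6), so that *hlh-30* and the double mutant overlapped. In both sums each of the 24 libraries was far under the lowest WT library.

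*F26D2.16* had no read in any of the 16 libraries of the 2 strains that carry the *pgph-2* transgene. In *hlh-30* it had 2, 6, 10 and 2 reads on glucose and 8, 0, 6 and 1 reads on NGM, that is up to 0.485 CPM. The upper limit that a count of 0 allows, 3 reads in a library, would be 0.102 to 0.178 CPM there. Against WT on the same medium, the level was at least 53.3-fold lower in *pgph-2 o/e* on glucose, at least 47.7-fold lower in *pgph-2 o/e* on NGM, at least 58.8-fold lower in the double mutant on glucose and at least 51.8-fold lower in the double mutant on NGM, when 3 reads per library are taken as the limit. Such limits, and all intervals on counts, cover counting error only.

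The *K12H6* pair was also at 0 in each of the 8 double mutant libraries and in the 4 *pgph-2 o/e* libraries on glucose. *K12H6.9* had 0, 1, 7 and 1 reads in *pgph-2 o/e* on NGM, 0, 4, 1 and 0 in *hlh-30* on glucose and 6, 0, 16 and 0 in *hlh-30* on NGM. *K12H6.4* had 0, 3, 3 and 1 reads in *pgph-2 o/e* on NGM, 4, 1, 5 and 0 in *hlh-30* on glucose and 8, 0, 1 and 0 in *hlh-30* on NGM. The same library, *hlh-30* on NGM replicate 3, held the highest count of *K12H6.9* outside WT, 16 reads, but only 1 read of *K12H6.4*. *ins-31* was at 0 in all 4 *pgph-2 o/e* libraries on glucose and in all 4 double mutant libraries on NGM, and had up to 10 reads in *hlh-30*. *F59B2.12* was at 0 in all 4 double mutant libraries on NGM and had 16 reads in *hlh-30* on glucose replicate 3, its highest count outside WT.

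**Figure D3:**
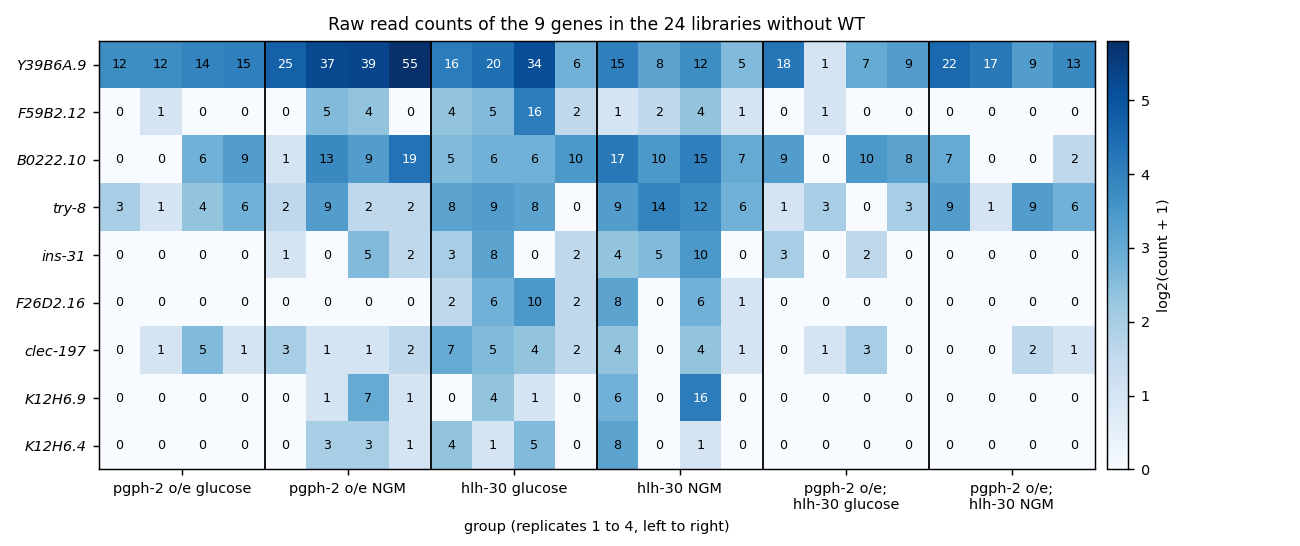
Raw read counts of the 9 genes (rows) in the 24 libraries of *pgph-2 o/e*, *hlh-30* and the double mutant (columns, 4 replicates per group). The number in each cell is the count and the shade is log2 of the count plus 1, and *F26D2.16* is at 0 in all 16 libraries with the *pgph-2* transgene while *Y39B6A.9* has reads in all 24 libraries.

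Glucose over NGM within WT was not used by the rule and was tested with edgeR's quasi-likelihood test, adjusted over the 15271 genes tested. Calls needed an adjusted P no higher than 0.05 together with a log2 fold change of 1 or more in either direction. None of the 9 genes was called, where 0.596% of all genes were called higher and 0.583% lower. At an unadjusted P under 0.05, 3 of the 9 were higher and 0 lower, against 12.8% and 11.3% of all genes, and with DESeq2 0 were called. The log2 fold changes of all 9 lay above 0, from 0.05 to 0.63 with a median of 0.24, where 52% of all genes lay above 0 and the median was 0.01. The 9 genes share the same 8 libraries, and no test of their sum was made.

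The largest of these differences was in *K12H6.4*, which had 6.70 ± 0.903 CPM on glucose and 4.36 ± 0.643 CPM on NGM (SD, n = 4 each). Its log2 fold change was 0.63 (SE 0.17, edgeR adjusted P 0.0733), and each glucose library was above each NGM library, as for 4.99% of all genes. With DESeq2 its log2 fold change was 0.63 as well and the adjusted P was 0.0167. *ins-31* had a log2 fold change of 0.50 (SE 0.17, edgeR adjusted P 0.128), with 9.85 ± 1.79 CPM on glucose and 6.99 ± 1.09 CPM on NGM. *K12H6.9* had 7.36 ± 0.975 CPM on glucose and 5.29 ± 1.36 CPM on NGM, a log2 fold change of 0.49 (SE 0.20, edgeR adjusted P 0.176). The libraries of both media overlapped for *ins-31*, *K12H6.9* and the other 6 genes.

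Among the other genotypes, only *Y39B6A.9* had enough reads to be tested in every comparison. In *pgph-2 o/e* it fell to 0.719 ± 0.0307 CPM on glucose, against 2.02 ± 0.744 CPM on NGM (SD, n = 4 each). The 4 libraries had 0.685, 0.713, 0.719 and 0.760 CPM on glucose and 1.43, 1.80, 1.74 and 3.11 CPM on NGM, without overlap. The log2 fold change was -1.47 (SE 0.33, edgeR adjusted P 0.00492), in a comparison where 13.1% of 15022 genes were called lower and 6.65% higher. In the same direction, *Y39B6A.9* was lower in the double mutant than in *pgph-2 o/e* on NGM, by a log2 difference of -1.52 (SE 0.35, edgeR adjusted P 0.00435), where 10.7% of 15199 genes were called lower and 7.58% higher. The double mutant libraries on NGM had 0.746, 0.825, 0.439 and 0.773 CPM. Both calls rest on the same 4 *pgph-2 o/e* libraries on NGM, which were higher than those of the other non-WT groups except for 1 *hlh-30* library on glucose with 1.65 CPM.

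The glucose effect in *pgph-2 o/e* minus that in WT was -1.66 on the log2 scale (SE 0.28) in an interaction fit added after the values were seen. This contrast holds the levels of both strains that the rule used, so it is given as a description without a test. Over all genes, 14.2% of 15816 were called lower in this fit and 6.27% higher.

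No other tested difference of *Y39B6A.9* passed. Glucose over NGM gave 0.71 in *hlh-30* (SE 0.52, edgeR adjusted P 0.371) and -0.73 in the double mutant (SE 0.53, edgeR adjusted P 0.418) on the log2 scale. In these comparisons 0.936% and 0.635% of all genes were called lower, and 3.54% and 1.2% higher. The double mutant over *pgph-2 o/e* on glucose gave -0.81 (SE 0.52, edgeR adjusted P 0.33), where 0.998% of all genes were called lower and 2.5% higher. Against *hlh-30*, the double mutant gave -1.09 on glucose (SE 0.66, edgeR adjusted P 0.345) and 0.35 on NGM (SE 0.38, edgeR adjusted P 0.616), where 0.19% and 0.353% of all genes were called lower, and 0.787% and 1.95% higher. *B0222.10* was the only further gene with enough reads, and in *hlh-30* on glucose it had 0.335 ± 0.18 CPM, against 0.66 ± 0.197 CPM on NGM (SD, n = 4 each), with a log2 fold change of -1.0 (SE 0.47, edgeR adjusted P 0.181). At 1 to 55 reads per library these estimates are wide, and the remaining 7 genes could not be compared at this depth.

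The neighbours were chosen by position alone, as the 5 protein-coding genes on each side of each of the 9. Most of those tested were not called in any comparison with WT. The 80 neighbours span 31.2 to 56.4 kb around each gene, and 54 had enough reads to be tested in at least 1 of the 6 comparisons of a strain with WT on the same medium. Of these, 36 were called in no comparison, and the same share over all tested genes was not worked out. The number called lower was 11 of 54 on glucose in *pgph-2 o/e* (20.4%, with 13.7% of all genes called lower), 5 of 52 in *pgph-2 o/e* on NGM (9.62%, 1.18% of all genes), 11 of 54 in *hlh-30* on glucose (20.4%, 14.7%), 6 of 52 in *hlh-30* on NGM (11.5%, 5.75%), 7 of 53 in the double mutant on glucose (13.2%, 10.8%) and 5 of 53 in the double mutant on NGM (9.43%, 5.27%). The number called higher was 5 of 54 for *pgph-2 o/e* on glucose (5.44% of all genes), 0 of 52 for *pgph-2 o/e* on NGM (1.7%), 5 of 54 for *hlh-30* on glucose (5.89%), 4 of 52 for *hlh-30* on NGM (1.2%), 4 of 53 for the double mutant on glucose (6.23%) and 4 of 53 for the double mutant on NGM (5.6%). The median log2 fold change of the neighbours lay between -0.07 and 0.07 in all 6 comparisons, where that of all genes differed from 0 by no more than 0.02. None of the 9 genes lies in a stretch where all tested neighbours were called lower. Only 4 to 9 of the 10 neighbours of a gene were tested. How often such a stretch lies around genes taken without the rule was not worked out.

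Of the neighbours, 7 were called lower in at least 3 of the 6 comparisons, that is 13% of the 54, where 10.4% of all tested genes were. Among them, 4 (of the 54 tested) were called lower in all 6, where 0.592% of all tested genes were. Of these 4, *C49C3.11* and *K12H6.8* met the rule of the 9 genes themselves. *K12H6.8* had no read outside WT, so it passed the filter through WT alone and could only be called lower. The nearest of the 4 is *C49C3.11*, 0.737 kb from *clec-197* on the opposite strand. It had 0 to 0.486 CPM in *pgph-2 o/e*, 0 to 0.65 CPM in *hlh-30*, and 0 to 0.137 CPM with both alterations, against 2.99 to 5.92 CPM in WT, and its log2 fold changes lay between -7.23 in *pgph-2 o/e* on glucose (edgeR adjusted P 7.15e-06) and -3.34 in *pgph-2 o/e* on NGM (edgeR adjusted P 0.000499). *C49C3.11* met the rule of the 9 genes itself, and the C-type lectin gene *clec-198*, 0.472 kb from *clec-197* on its other side, was called in none of the 6 comparisons, with 2.26 CPM on average in the other strains and 2.05 CPM in WT.

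*K12H6.8*, 2.95 kb from *K12H6.9*, had no read in any of the 24 other libraries and 0.675 to 1.66 CPM in WT (13 to 37 reads). With 3 reads per library as the limit, this is at least 6.23-fold lower in *hlh-30* on NGM and at least 8.06-fold lower in *hlh-30* on glucose, with the other 4 groups in between. It met the rule too. *K12H6.6*, the next gene, was called in none of the 6 comparisons, with 24 CPM on average in the other strains and 18.1 CPM in WT, since its log2 fold changes of 0.12 to 0.68 stayed under 1. *K12H6.5*, between *K12H6.9* and *K12H6.8* and 0.715 kb from the former, had 36 reads in total and was not tested. It averaged 0.195 CPM in WT and 0.0065 CPM in the other strains.

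Both *try-13* and *try-11*, neighbours of *try-8* from the same protease family, were lower. *try-13*, 11.2 kb away, had 0.0594 to 0.506 CPM in *pgph-2 o/e*, 0.0485 to 1.09 CPM in *hlh-30*, and 0.168 to 0.427 CPM with both alterations, against 3.42 to 7.23 CPM in WT, and was called lower in all 6 comparisons with log2 fold changes between -4.95 in *pgph-2 o/e* on NGM (edgeR adjusted P 1.56e-05) and -2.83 in *hlh-30* on NGM (edgeR adjusted P 0.00262). By the deposited positions, *try-11* overlaps *try-8* by 193 bases on the opposite strand. In the Ensembl annotation *try-8* begins only at 7452912, past the deposited end of *try-11* at 7452899. *try-11* was called lower in 5 of 6, with *hlh-30* on NGM as the exception (log2 fold change -0.55, edgeR adjusted P 0.34). Its 20 to 37 reads per WT library and 0 to 31 elsewhere are uncertain, as are those of *try-8*, because how the counting treated strand is not given in the sources used here. *try-12*, which lies between *try-13* and *try-11*, was called in none, with 7.7 CPM on average in the other strains and 6.52 CPM in WT.

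Around *ins-31*, *T10D4.15* lies 18.3 kb away and was called lower in all 6 comparisons. It had 0 to 1.57 CPM in *pgph-2 o/e*, 0.316 to 0.874 CPM in *hlh-30*, and 0.0678 to 0.939 CPM with both alterations, against 3.38 to 5.19 CPM in WT, with log2 fold changes between -5.13 in *pgph-2 o/e* on NGM (edgeR adjusted P 6.45e-05) and, on glucose, -1.83 in *pgph-2 o/e* (edgeR adjusted P 0.000235). The lectin gene *clec-123*, 10.3 kb on the other side, was called lower in the 3 comparisons on glucose and in none on NGM, and *F59B2.15* near *F59B2.12* in 4 of 6. The nearest gene to *ins-31*, its family member *ins-19* at 0.599 kb, had 0 reads in WT and a mean of 0.0272 CPM in the other strains and was not tested.

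On the other side, 4 neighbours were called higher in at least 3 of the 6 comparisons, where 4.33% of all tested genes were, and 0 in all 6, where 0.0189% were. Of these, 3 flank *B0222.10*: the cuticle collagen genes *col-144* and *col-10*, which encode structural proteins of the body surface, were each higher in 5 of 6 (not in *pgph-2 o/e* on NGM), and *B0222.5* was higher in the 3 comparisons on glucose. *col-144* ends 0.103 kb from *B0222.10* on the opposite strand and had 769 to 3530 CPM in *pgph-2 o/e*, 1810 to 3390 CPM in *hlh-30*, and 1890 to 2990 CPM with both alterations, against 489 to 1590 CPM in WT. *col-144* has far more reads than *B0222.10*. The low level of *B0222.10* outside WT is how it was picked, so no conclusion is drawn from the opposite directions. The last was *Y39B6A.7*, 6.53 kb from *Y39B6A.9*, which was called higher in all 5 comparisons that tested it, with a median of 0.943 CPM in *pgph-2 o/e*, 1.78 CPM in *hlh-30*, and 1.57 CPM with both alterations, against 0.462 CPM in WT. *F26D2.16* had no neighbour of either kind, and 6 of its 10 neighbours had too few reads for a test. Apart from *try-11*, 2 noncoding genes overlap one of the 9, *F59B2.17* with *F59B2.12* and *21ur-13219* with *clec-197*, and both had 0 reads in all libraries.

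**Figure D4:**
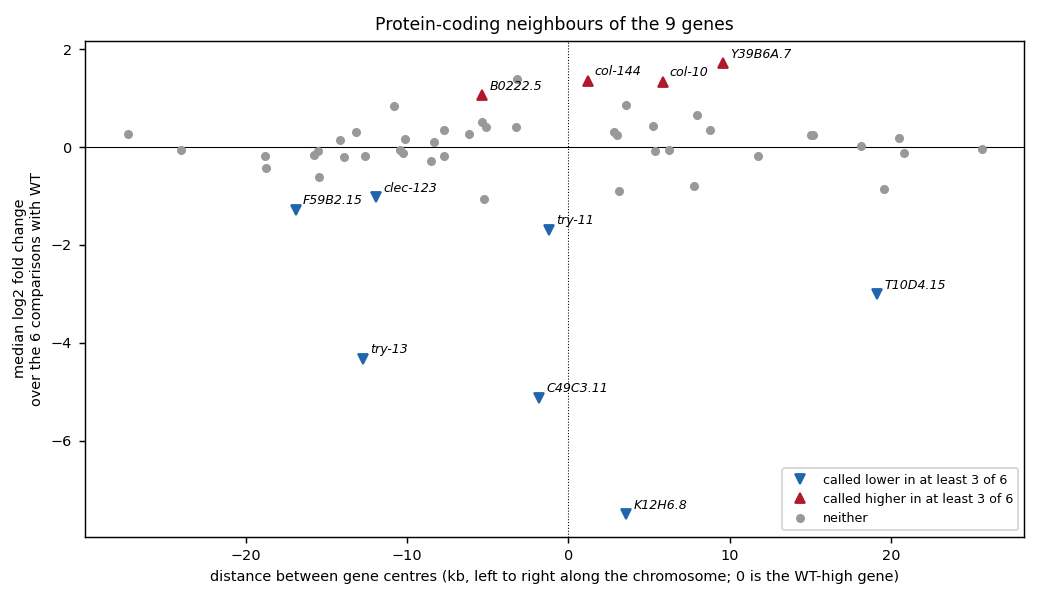
Median log2 fold change over the 6 comparisons with WT (y axis) of the 54 tested neighbours against the distance between gene centres in kb (x axis, with the WT-high gene at 0). Most points lie near 0 at all distances, and the 4 lowest, *K12H6.8*, *C49C3.11*, *try-13* and *T10D4.15*, lie within the same distances as neighbours near 0.

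The families of the 3 named genes differed in how many members were called. Of the 38 other insulin-like genes, 20 to 22 were tested, and between 0 and 2 were called lower and 1 to 4 higher in a comparison. None was lower in at least 4 of the 6, where 4.5% of all tested genes were, and 1 of 22, *ins-33*, was higher in at least 4 (4.55%, with 2.49% of all genes), at 1.95 to 21 CPM in the other strains and 1.87 to 7.17 CPM in WT. Of the 263 other *clec* genes, 129 to 139 were tested, with 17 to 41 called lower and 8 to 24 higher. At least 4 calls of 6 were reached by 18 lower (12.2% of 148 tested in any comparison, with 4.5% of all genes) and 10 higher lectin genes (6.76%, with 2.49% of all genes). The largest mean changes among the lower ones were in *clec-219* (0 to 0.35 CPM in the other strains, 3.42 to 5.92 CPM in WT), *clec-95* (0 to 0.679 and 2.31 to 5.7 CPM), *clec-207* (0 to 0.458 and 2.87 to 5.19 CPM), *clec-137* (0 to 0.264 and 2.98 to 6.18 CPM) and *clec-138* (0 to 0.4 and 2.67 to 5.4 CPM), and all but *clec-95* met the rule of the 9 genes. Among the higher ones were *clec-61*, *clec-174*, *clec-67*, *clec-17* and *clec-41*. Of the 14 other *try* genes, 11 to 13 were tested. On glucose 6 of 12 were called lower in *pgph-2 o/e* (50%), 7 of 11 in *hlh-30* (63.6%) and 5 of 12 in the double mutant (41.7%), and on NGM 2 or 3 were, with the shares of all genes as given for the neighbours. Of the *try* genes, only *try-13* and *try-11*, the neighbours of *try-8*, were lower in at least 4 comparisons (14.3% of 14, with 4.5% of all genes).

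The genes whose pattern was most like the mean of the 9 were found among 14107 genes by Pearson's r over the 32 libraries, as a description. They were *clec-219* (0.98), *clec-137* (0.97), *C05B5.11* (0.97), the gene *scl-7* of the SCP/TAPS family (0.97) and *pdr-1* (0.96). The first 4 met the rule. *pdr-1*, the worm homolog of the ubiquitin ligase parkin, did not, since its level differed by a smaller factor and at far more reads: 33.2 to 40.8 CPM in *pgph-2 o/e*, 28.9 to 39.9 in *hlh-30*, and 32.3 to 38.6 for the double mutant, against 69.1 to 81.2 CPM in WT. The levels of *pdr-1* did not overlap between WT and any other strain. This goes with how *pdr-1* was picked, by its likeness to a profile high in WT alone. The share of all genes without such overlap was not worked out.

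Markers of other cell types were read beside these results, since whole animals were used and fewer cells of a type cannot be told apart from less RNA per cell. In the list of 11 male genes, 8 had a higher median in WT than in the 24 other libraries. Its summed level was 2.18 to 5.94 CPM in *pgph-2 o/e*, 4.14 to 6.31 CPM in *hlh-30*, and 3.69 to 6.53 CPM with both alterations, against 6.6 to 9.09 CPM in WT, so that the sum did not overlap although no single gene separated fully. The genes *cwp-1* and *cwp-2*, expressed with the polycystin genes *lov-1* and *pkd-2* in male sensory neurons, moved most. *cwp-1* was at 0 in 23 of the 24 other libraries and had 2 to 14 reads in each WT library. *cwp-2* was at 0 in 17 of 24 and had 0.367 to 1.55 CPM in WT, *pkd-2* had 0 to 0.506 CPM elsewhere and 0.342 to 1.39 CPM in WT, and *lov-1* had 0 to 0.354 CPM elsewhere and 0.222 to 0.911 CPM in WT. In contrast, *cwp-4* (median 1.4 CPM elsewhere, 1.13 CPM in WT), *dmd-3* (1.5 and 1.28 CPM) and *mab-23* (0.27 and 0.225 CPM) were not higher in WT by their medians. The remaining genes, *cwp-3*, *cwp-5*, *try-5* and *trf-1*, had a higher median in WT with overlapping libraries. In the 6 comparisons with WT, 4 or 5 of the 11 genes were tested and 1 or 2 called lower, where 1.18% to 14.7% of all genes were. The study states that hermaphrodites were used, and the part of these genes in the result was not tested.

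**Figure D5:**
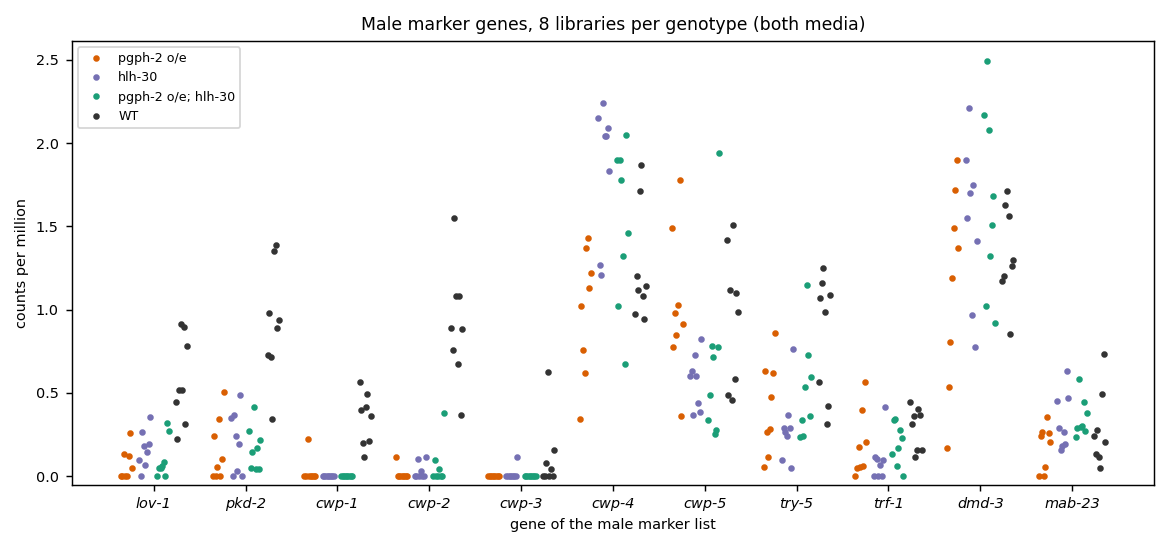
Level in CPM (y axis) of the 11 genes of the male marker list (x axis), with 8 libraries per genotype over both media as points. *cwp-1*, *cwp-2*, *pkd-2* and *lov-1* are highest in WT, at up to 1.55 CPM, while *cwp-4*, *dmd-3* and *mab-23* are not.

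The sperm list, 30 genes of the major sperm protein family and sperm phosphatases, was lower than in WT in 5 of the 6 comparisons and higher in the sixth, *pgph-2 o/e* on NGM. There its summed level was 2410 to 4070 CPM in *pgph-2 o/e* on NGM, against 1170 to 2060 CPM in WT on NGM, and 10 of its genes were called higher and 0 lower. The 9 genes were low in all 6 comparisons by the rule that chose them, so no conclusion is drawn from setting them beside this list. On NGM 22 of the 30 sperm genes were called lower in *hlh-30* and 15 in the double mutant, and on glucose all 30 were called lower in each of the 3 strains than in WT. Of all genes, 5.75% were called lower in *hlh-30* on NGM, 5.27% in the double mutant on NGM and 10.8% to 14.7% in the 3 strains on glucose. In *pgph-2 o/e* on NGM 1.7% of all genes were called higher and 1.18% lower. The same shares apply to the lists that follow. The oocyte list had 580 to 915 CPM in *pgph-2 o/e* on NGM and 286 to 397 CPM in WT on NGM, with 8 of 12 genes called higher and 0 lower. In the 5 other comparisons 0 oocyte genes were called higher, and those called lower were 6 in *pgph-2 o/e* on glucose, 8 in *hlh-30* on glucose, 4 in *hlh-30* on NGM, 5 in the double mutant on glucose and 4 in the double mutant on NGM. The yolk list had 0 of 6 genes called in *pgph-2 o/e* on NGM and 1 to 6 called lower in the 5 other comparisons. Of the lists for intestine (6 of 7 genes in the table), body wall muscle, pharynx and neurons, 0 to 1 genes were called in each direction in any comparison with WT, and of the 5 hypodermis genes 0 to 3 were called lower. Which part the germline lists have in the result was not tested.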

How the data were processed

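RNA-seq of whole animals gave 32 libraries of 4 genotypes on 2 media, 4 replicates per group, which the study calls biological replicates. P values measure the spread between these libraries. The authors filtered the read pairs, mapped these by Hisat2 and obtained gene counts from featureCounts (version 1.5.0-p3 and build WBcel235 per the submitters' processing notes), and the deposited values are these raw counts per gene, without normalization or filter, with gene positions and lengths. The strand setting is not given in the sources used here and would affect overlapping genes most. Folds against groups at 0 used 3 counts per library.

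CPM for the rule were scaled by total counts, and all other CPM by TMM factors over the 32 libraries. Tests were quasi-likelihood tests of edgeR 4.0.16 in R 4.3.3 on the libraries of each comparison (filterByExpr, minimum count 10, minimum total 15), with Benjamini-Hochberg adjustment over all genes tested. In simulated data for WT on glucose over NGM, 188 of 200 genes changed by 2 on the log2 scale were recovered, with 4 false calls among 15271 genes. The members and lists were chosen with earlier results of these data known.

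Named were each of the 9 genes, the 5 genes just outside the rule, the 5 genes most alike in pattern (log2 CPM with a prior count of 2, genes averaging 1 CPM or more), neighbours called in at least 3 of 6 comparisons, overlapping genes, *pgph-2*, *hlh-30* and family members called in at least 4 of 6 comparisons (up to 5 a family). Other neighbours, genes just inside the rule and male markers were named after their values were seen. Symbols came from RefSeq for WBcel235, which matched all 9 genes.

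Alternatives were DESeq2 1.42.0, its size factors in edgeR, no filter, a minimum of 10 counts per library, the replicate number as a block, single libraries left out, adjusted P alone, other windows around the genes and other forms of the rule. Same-numbered libraries deviated together, with every correlation over 0.1, in 1 of 14 comparisons, the double mutant over *hlh-30* on glucose. Relatives by protein sequence and motifs in promoters were planned but not analysed here.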

Additional observations from a re-analysis of the deposited data

Results flagged for a closer look

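The estimated effect of glucose on *Y39B6A.9* differed between *pgph-2 o/e* and WT. The log2 fold change of glucose over NGM was -1.47 in *pgph-2 o/e* and 0.18 in WT. A fit of the interaction, added after the values were seen, gave a difference of -1.66 (SE 0.28). It is a description without a test, since the rule used the levels of both strains. All 4 *pgph-2 o/e* libraries on glucose were below all 4 on NGM, while the WT libraries overlapped between media.

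In 26 groups of 4 libraries with a mean of at least 10 counts of one of the 9 genes, 4 single libraries stood far from the other 3, where about 1 in 20 would be flagged by chance. In WT on glucose, replicate 1 was the lowest for *try-8* with 7.84 CPM. In WT on NGM, replicate 1 was the highest for *try-8* with 11.5 CPM, for *ins-31* with 8.62 CPM and for *clec-197* with 7.44 CPM.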

How the results depend on the processing

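The 61 genes that met the rule became 95 at a threshold of 2, 33 at a threshold of 8, 12 with a mean WT level of at least 5 CPM and 134 on glucose libraries alone, and 61 to 67 when any single library was left out. The 9 listed genes all met it under each of these settings except the threshold of 8, where 7 did, and without replicate 3 of *hlh-30* on both media, a setting chosen after seeing the data, 64 genes met it. The 7 neighbours called lower became 1 with at least 10 counts in every library (a setting that drops genes near 0 in any library), 11 with the adjusted P alone, 3 with 3 genes on each side, 12 with 10 genes on each side and 11 with all genes within 20 kb. They were 7 to 10 without single libraries. The 4 called higher became 10 with the adjusted P alone, and 4 to 5 without single libraries.

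With DESeq2, 1 of the 9 genes was called in the double mutant over *hlh-30* on NGM in place of 0, which was *B0222.10* (log2 fold change -2.81, DESeq2 adjusted P 0.0138). Without single libraries this count was 0 to 1, and it was 1 without *hlh-30* on NGM replicate 4 (-2.83, edgeR adjusted P 0.016) and without the double mutant on NGM replicate 1 (-4.01, edgeR adjusted P 0.03), where the smaller comparison let *B0222.10* pass the filter. The fold change of *B0222.10* for glucose over NGM in WT ranged from -0.0115 to 0.1497 without single libraries and was below 0 only without WT on NGM replicate 3. For *K12H6.4* in this comparison, the adjusted P ranged from 0.0167 to 0.271 over the alternatives, always with a log2 fold change under 1. Both calls of *Y39B6A.9* held in each alternative that gave a value, with adjusted P values of at most 0.0186.

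With a block for the replicate number, the log2 fold change of *Y39B6A.9* for glucose over NGM in *pgph-2 o/e* was -1.43 (edgeR adjusted P 0.0177) and that of *K12H6.4* in WT 0.63 (edgeR adjusted P 0.271), 7 neighbours were called lower and 5 higher, and no call of the 9 genes changed. With at least 10 counts in every library, *Y39B6A.9* for glucose over NGM in *pgph-2 o/e* was the only non-WT value left of the 9 genes. Genes at 0 to 16 reads per library cannot be ordered at this depth.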
